A study of Mus musculus with 6 samples.

Results

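Long noncoding RNA (lncRNA) genes were examined in mouse cells of the embryonic stem line J1 (strain 129S4/SvJae) after differentiation. The members were all genes that the deposited tables class as lncRNA, less 6 Platr genes, and numbered 94 of 2031 deposited genes. The other deposited genes were mainly protein coding (1811 genes). Embryoid bodies, which are aggregates of differentiating cells, were grown by the hanging drop method towards heart muscle. NC denotes the cultures in a conventional incubator (3 libraries) and MF those in a static magnetic field incubator (3 libraries). Both groups were of the same line, for which no genetic change is named, the series calls the libraries biological triplicates, and they were made from poly-A RNA. How strong the field was, how long it lasted and how old the cultures were are not given in the sources read. A lncRNA without a poly-A tail would be poorly captured, and in bulk samples fewer cells of a type and less RNA per cell cannot be told apart.

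Long noncoding RNAs are transcripts that are spliced and processed much like messenger RNAs but encode no known protein. Many are transcribed from the opposite strand of a developmental transcription factor gene or away from a shared promoter, and their levels often follow that gene. Some act at their own locus (Airn silences the neighbouring Igf2r on the paternal chromosome), others are precursors of microRNAs or small nucleolar RNAs, and most have no known function. In stem cells several mark the pluripotent state, while others appear as mesoderm and heart form.

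In 5 members, a RefSeq mature microRNA (GRCm38.p6) lies within the gene on the same strand. They are Dnm3os, Mir100hg, Dio3os, H19 and Gm35853. A further member, C430049B03Rik, ends 719 bases before a cluster of microRNAs on chromosome X. The microRNAs themselves were not measured. The sequences below show what these loci carry, 5′ to 3′, with the seed (bases 2 to 8, which pair with targets) in capitals.
miR-199a-5p in Dnm3os: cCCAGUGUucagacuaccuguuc
miR-199a-3p in Dnm3os: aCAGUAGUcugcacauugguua
miR-214-3p in Dnm3os: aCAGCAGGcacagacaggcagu
miR-100-5p in Mir100hg: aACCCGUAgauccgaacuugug
miR-125b-5p in Mir100hg: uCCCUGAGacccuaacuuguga
miR-351-5p near C430049B03Rik: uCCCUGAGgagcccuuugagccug
miR-322-5p near C430049B03Rik: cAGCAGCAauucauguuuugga
miR-503-5p near C430049B03Rik: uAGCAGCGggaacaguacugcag
miR-675-5p in H19: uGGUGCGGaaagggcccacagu
miR-1247-5p in Dio3os: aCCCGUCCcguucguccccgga
The seed CCCUGAG is shared by miR-125b-5p of Mir100hg and miR-351-5p beside C430049B03Rik. Both of these lncRNAs were higher in every MF library than in any NC library. That sets neither apart, since 42 of the 45 members higher in MF and 93.0% of all named deposited genes had no overlap of the groups.

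Promoters are shown for 2 members that rose (Dio3os, Dubr) and 2 that fell (Eprn, Gm32885), since counts of CG-rich promoters differed between higher and lower members, as described below. Each covers 250 bases before and 50 after the RefSeq start (GRCm38.p6), on the strand of the lncRNA, with CG dinucleotides in capitals.
Dio3os, chr12:110278019-110278318, minus strand: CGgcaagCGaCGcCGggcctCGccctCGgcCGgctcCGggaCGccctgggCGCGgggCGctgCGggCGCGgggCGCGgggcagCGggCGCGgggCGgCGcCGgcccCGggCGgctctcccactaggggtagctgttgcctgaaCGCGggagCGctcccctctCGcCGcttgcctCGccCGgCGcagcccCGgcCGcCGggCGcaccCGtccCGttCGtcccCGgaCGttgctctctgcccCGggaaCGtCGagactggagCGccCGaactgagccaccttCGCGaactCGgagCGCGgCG
Dubr, chr16:50732724-50733023, minus strand: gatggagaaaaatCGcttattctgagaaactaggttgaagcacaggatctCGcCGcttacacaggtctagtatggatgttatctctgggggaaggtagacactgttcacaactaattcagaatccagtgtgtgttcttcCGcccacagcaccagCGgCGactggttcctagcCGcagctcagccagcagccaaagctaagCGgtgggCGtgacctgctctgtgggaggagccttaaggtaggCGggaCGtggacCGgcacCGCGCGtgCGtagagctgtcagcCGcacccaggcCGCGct
Eprn, chr13:73347335-73347634, minus strand: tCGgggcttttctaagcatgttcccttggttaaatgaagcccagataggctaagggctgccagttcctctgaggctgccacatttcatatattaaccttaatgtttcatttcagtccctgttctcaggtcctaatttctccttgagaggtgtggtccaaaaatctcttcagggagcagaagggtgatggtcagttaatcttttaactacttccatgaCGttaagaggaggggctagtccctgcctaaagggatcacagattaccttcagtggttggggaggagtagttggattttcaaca
Gm32885, chr15:97167195-97167494, minus strand: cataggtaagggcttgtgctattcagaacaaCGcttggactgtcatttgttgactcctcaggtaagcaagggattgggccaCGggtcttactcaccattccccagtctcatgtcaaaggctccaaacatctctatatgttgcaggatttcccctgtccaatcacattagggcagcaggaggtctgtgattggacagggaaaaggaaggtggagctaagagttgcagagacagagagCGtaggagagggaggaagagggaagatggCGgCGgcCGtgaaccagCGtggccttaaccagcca
The Dio3os window holds 53 CG dinucleotides and that of Dubr 19, against 7 for Gm32885 and 2 for Eprn. Other members did not follow this order: among the higher ones Dnm3os had 5, Airn 3 and Evx1os 6, and among those that fell Snhg16 had 22. The Dio3os gene of the files begins 104 bases before the RefSeq start, and miR-1247-5p lies in this stretch, so that its bases are also part of the promoter window.

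Members higher in MF included lncRNAs beside Hand2, Dlx4, Igf2 and Dio3 and precursors of microRNAs, and members lower in MF included Eprn, the small nucleolar RNA host Snhg16 and many predicted genes of unknown function. Of the 94 members, 45 were higher and 49 lower, while 64.2% of all 1983 named deposited genes were higher and 35.8% lower. The deposited genes had been preselected: in the authors' deposited table every gene has an adjusted p of at most 0.0499 and a log2 fold change of at least 1.001 in size. Directions and calls below therefore describe genes already chosen on these libraries. Lower levels thus made up 52.1% of the members. The median log2 fold change was 2.48 in the higher members and −3.02 in the lower ones, against 1.77 and −1.96 in all higher and all lower deposited genes. With genes at 0 counts in a group set to their bounds, the lower members' median was −2.95 and the other 3 medians stood as given. The members also differed from the deposited coding genes in abundance and length, as given next.

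Levels are given as FPKM (counts per kilobase of gene, scaled to the depth of the library). The median level was 0.58 FPKM in the higher and 1.43 in the lower members, against 2.19 in the deposited coding genes. Median lengths were 2574 and 1042 bases, against 4414. The larger median folds of the members were not compared at like abundance, and what the authors' selection adds to them was not tested. A filter that required 0.5 FPKM on average admitted 67 members to edgeR's quasi-likelihood test, of which 25 were higher and 42 lower, and left out 20 higher and 7 lower members. At an adjusted p under 0.05 (Benjamini-Hochberg over 1651 tested genes), 23 members rose and 40 fell. The test called 62.1% of all tested genes higher and 35.4% lower, 97.5% in all, so that being called sets no member apart. The 4 tested members not called were H19, AI506816, 4930558J18Rik and 1600025M17Rik. Over the 19071 tests recovered from the authors' p-values no member was called (background 0.0%, smallest adjusted p 0.131), although 63 members had an unadjusted p under 0.05. On the same number of tests, DESeq2 with the authors' size factors called 8 higher and 5 lower members, against 29.4% and 7.33% of all tested genes. For edgeR with a replicate block the members called were 6 and 5, against 22.8% and 7.75%. DESeq2's own size factors and TMM, both estimated on these selected genes, moved the median of all tested genes by −1.05 and −0.70 and split the called members 6 to 42 and 7 to 42. Of all tested genes, DESeq2 called 15.9% higher and 36.3% lower, and TMM 17.6% and 35.7%.

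In 88 members the NC and MF libraries did not overlap (42 higher, 46 lower), against 93.0% of all named deposited genes (59.3% higher, 33.7% lower). The 6 others were Hand2os1, 5033428I22Rik and 5430431A17Rik among the higher members and 4921525O09Rik, Gm47599 and C78283 among the lower.

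**Figure D1:**
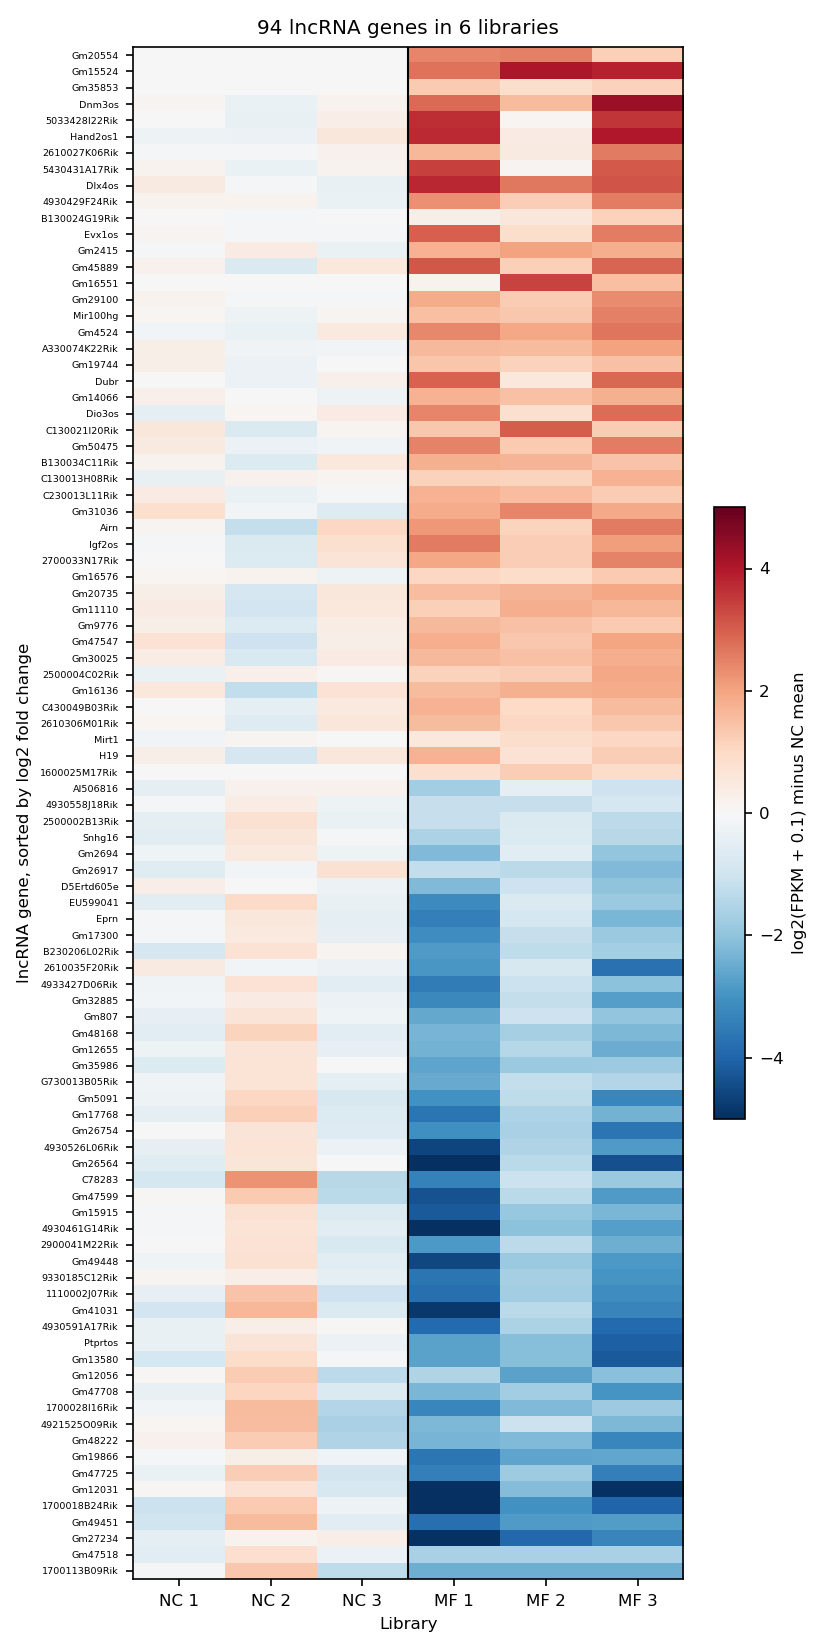
Levels of all 94 lncRNA genes (rows, sorted by log2 fold change) in the 6 libraries (columns), as log2(FPKM + 0.1) minus the mean of the 3 NC libraries, from blue (lower) to red (higher). The 45 higher genes stand above the 49 lower ones, and MF replicate 2 is the palest MF column for many genes.

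The libraries of a group were not alike, and the replicate 2 libraries stood apart. Among the 49 lower members NC replicate 2 was the highest NC library in 45 and MF replicate 2 the highest MF library in 39. In 29 of 45 higher members MF replicate 2 was the lowest MF library, and in 3 it was at or under the highest NC library. The median of log2(FPKM + 0.1) relative to the NC mean was 1.75, 1.23 and 1.92 for the higher members in MF replicates 1 to 3. For the lower members it was −3.07, −1.50 and −2.45 in MF and −0.25, 0.71 and −0.47 in NC.

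Marker genes ran with these differences. Summed over the 9 of 10 cardiomyocyte markers in the tables used here, all higher, levels were 29.3 to 69.3 FPKM in NC and 639, 117 and 327 in MF replicates 1 to 3. Mesenchyme markers (7 of 7, all higher) summed to 86.6 to 241 FPKM in NC and 1077, 203 and 900 in MF. Pluripotency markers (3 of 10, namely Dppa3, Utf1 and Prdm14, all lower) summed to 200.4, 428 and 172 FPKM in NC and 16.2, 105 and 28.0 in MF. Other markers of that list, such as Pou5f1, Nanog and Sox2, were not among the preselected genes, so their levels are not known here. Germ cell markers (4 of 6, all lower) summed to 46.0, 162 and 36.1 FPKM in NC and 2.36, 12.5 and 5.63 in MF. Endothelial markers were mixed (4 of 5, with 3 higher and 1 lower), while 0 of 5 neural and 0 of 4 blood markers were matched in the tables used here. The part that the mix of cells plays in the lncRNA levels was not tested. Without both replicate 2 libraries, an alternative chosen after seeing the data, 24 members were called higher and 38 lower, against 62.2% and 35.3% of all tested genes.

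**Figure D2:**
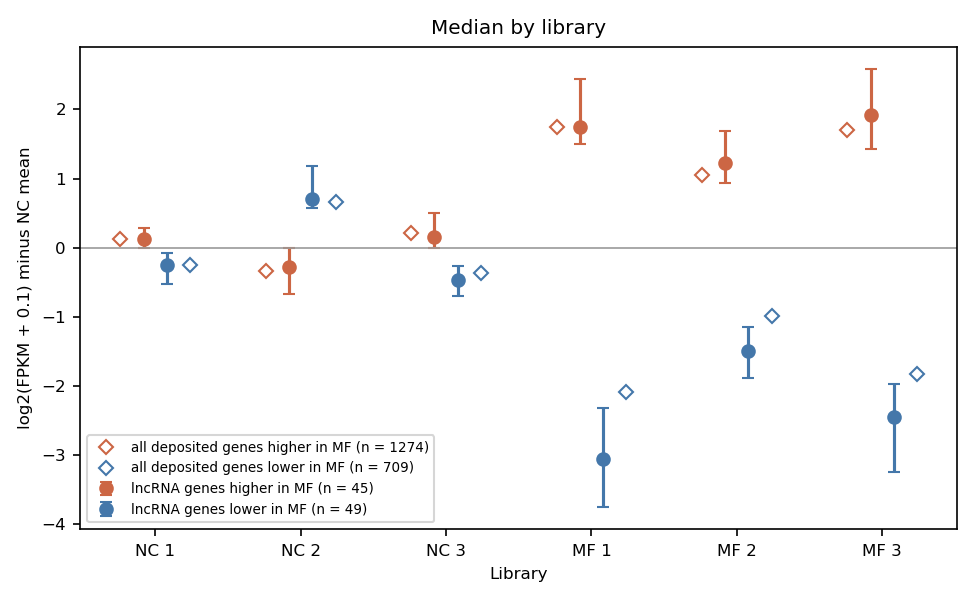
Median of log2(FPKM + 0.1) minus the NC mean in each library for the 45 higher and 49 lower lncRNA genes (filled circles, bars from the 25th to the 75th percentile) and for all higher (1274) and lower (709) named deposited genes (open diamonds). The lower lncRNA genes reach −3.07 in MF replicate 1 and −1.50 in MF replicate 2, below the corresponding diamonds.

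Calls depended on single libraries. Without MF replicate 3 edgeR called no member (36 had an unadjusted p under 0.05), and 0.727% of all tested genes higher and 0.0% lower. Without NC replicate 2 it called 11 members higher and 5 lower, against 35.7% and 8.84% of all tested genes. Without MF replicate 1 the members called were 8 and 11 (all genes 21.6% and 5.45%), and without NC replicate 1 they were 10 and 21 (all genes 25.6% and 13.3%). Without NC replicate 3 they were 12 and 30 (all genes 38.1% and 23.2%), and without MF replicate 2 they were 21 and 41 (all genes 60.3% and 35.3%). Under DESeq2's own size factors, and likewise under TMM, the calls of 11 named genes were lost, all of them higher in MF. These were Airn, Igf2os, Dio3os, C430049B03Rik, Gm50475, 2700033N17Rik, Gm31036, Gm30025, Gm47547, Gm16136 and 2610306M01Rik.

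The lncRNAs of heart and mesoderm loci had some of the largest rises. From a list of 20 such lncRNAs, 2 were among the members, Hand2os1 and Dnm3os, and both rose. Hand2os1 (mm10, chromosome 8, 57281117 to 57324233, minus strand) is transcribed from the strand opposite Hand2, a transcription factor gene needed for the heart and limbs, and is known to influence it. Its levels were 0.0149, 0.00967 and 0.0991 FPKM in NC replicates 1 to 3 and 1.73, 0.0788 and 2.07 in MF replicates 1 to 3. MF replicates 1 and 3 stood far above all NC libraries, while MF replicate 2 lay under NC replicate 3. The fold change was 31.2 (log2 4.96, SE 1.22, adjusted p 0.0170). It was 101 without NC replicate 3 and 21.8 without MF replicate 3 (adjusted p 0.0726). Hand2 itself was at 0.543, 0.238 and 2.96 FPKM in NC and 59.1, 3.11 and 57.7 in MF, with the same 2 libraries high. Exons of the 2 genes share 461 bases, and since no source states whether counting used the strand, reads there cannot be assigned to either gene.

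On the other side of Hand2, 7485 bases from it, lies 5033428I22Rik, an uncharacterised lncRNA named here after its values were seen. It measured 0.0292, 0 and 0.0612 FPKM in NC and 1.53, 0.0381 and 1.44 in MF, and rose 32.8-fold (adjusted p 0.0201). As for Hand2os1, MF replicates 1 and 3 were high and MF replicate 2 lay under NC replicate 3.

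Dnm3os (chromosome 1, 162217623 to 162225550, plus strand) lies within Dnm3 on the opposite strand, sharing no exon with it, and is the precursor of miR-199a and miR-214, shown above, which are known from skeletal and muscle development. It was at 0.0403, 0 and 0.0422 FPKM in NC and 0.796, 0.278 and 2.32 in MF, so that all 3 MF libraries were higher than any NC library. The rise was 40.1-fold (log2 5.33, SE 1.10, adjusted p 0.0123), and without MF replicate 3, its highest library, the log2 fold change was 4.25 (adjusted p 0.0631). The host gene Dnm3, a dynamin, lay below the test's filter and differed 2.73-fold.

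Mir100hg, the precursor of miR-100 and miR-125b (chromosome 9, 41327077 to 41716994), also had a mean below the filter. Its levels were 0.0641, 0.0286 and 0.0701 FPKM in NC and 0.334, 0.286 and 0.771 in MF, a fold change of 8.51 without overlap. From a list of 20 microRNA host genes it and Dnm3os were the members. C430049B03Rik (chromosome X, 53055046 to 53057190, minus strand) was far more abundant. It rose 2.69-fold (SE 0.42 on the log2 scale, adjusted p 0.0237), from 9.12, 6.44 and 12.9 FPKM to 30.5, 18.2 and 27.9.

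Dlx4os (chromosome 11, 95145052 to 95159047), opposite the homeobox gene Dlx4, had the smallest adjusted p of the members. It was at 0.154, 0.0746 and 0.0403 FPKM in NC and 2.41, 1.04 and 1.51 in MF, without overlap. Dlx4os rose 17.6-fold (log2 4.14, SE 0.81, adjusted p 0.0114), 26.6-fold without NC replicate 1 and 13.5-fold without MF replicate 1. It was the member from a list of 21 neural lncRNAs. Dlx4 had 4.11 times its NC level in MF but a mean below the filter, and 79 bases of exon are common to both genes.

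Evx1os (chromosome 6, 52308389 to 52314832), opposite Evx1 at the end of the HoxA cluster, a gene of the primitive streak, was at 0.0635, 0.0411 and 0.0444 FPKM in NC and 1.07, 0.178 and 0.774 in MF. All MF libraries were higher, 13.0-fold by the fit, but its mean lay below the filter. It was the member from a list of 15 Hox cluster lncRNAs. Evx1 rose 6.13-fold, with MF replicate 2 under NC replicate 3.

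**Figure D3:**
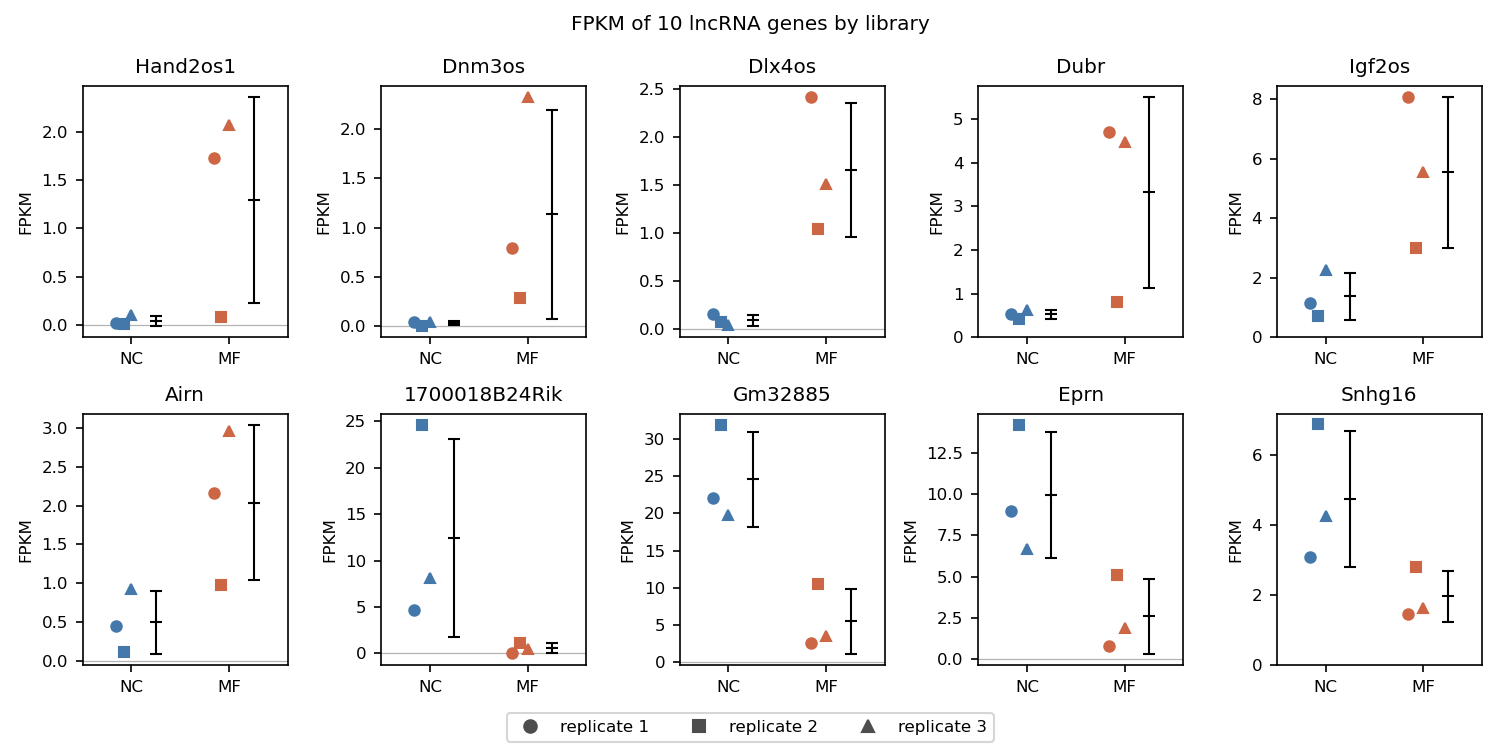
FPKM (vertical axes, linear) of 10 lncRNA genes in the 3 NC and 3 MF libraries, with symbols for the replicate number and a bar for the mean ± SD (n = 3). The 6 genes from Hand2os1 to Airn were higher in MF and the 4 from 1700018B24Rik to Snhg16 lower, and in all 10 MF replicate 2 (square) was the MF library nearest to the NC mean.

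From a list of 14 lncRNAs at imprinted loci, where expression depends on the parent of origin, 2 were members, of which Airn rose and H19 was not called. Igf2os and Dio3os, described with them, are not on that list. H19, a maternally expressed RNA abundant in embryonic tissue and known to restrain growth, was the most abundant member by far. It was at 1799, 818 and 2158 FPKM in NC and 4956, 2423 and 3477 in MF. The groups did not overlap, but NC replicate 3 and MF replicate 2 lay close together. The difference of 2.27-fold missed the threshold (SE 0.55 on the log2 scale, adjusted p 0.0558). With the replicate block it was 1.24 on the log2 scale with an adjusted p of 0.0131, and without MF replicate 2 the adjusted p was 0.0250.

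Beside H19, Igf2os (chromosome 7, 142659693 to 142670356) runs opposite Igf2, the fetal growth factor gene that shares enhancers with H19. Igf2os rose 4.03-fold, from 1.14, 0.721 and 2.26 FPKM to 8.06, 3.00 and 5.54 (SE 0.56 on the log2 scale, adjusted p 0.0218). Igf2 rose 4.82-fold, and exons of both genes share 1142 bases.

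Airn (chromosome 17, 12741311 to 12860136) overlaps Igf2r, the receptor that clears IGF2. It was at 0.456, 0.121 and 0.927 FPKM in NC and 2.17, 0.978 and 2.96 in MF, and rose 4.06-fold (SE 0.75 on the log2 scale, adjusted p 0.0316). MF replicate 2 was only just above NC replicate 3. The fold was 7.03 without NC replicate 3 and 2.94 without NC replicate 2 (adjusted p 0.0604). Igf2r rose 3.92-fold in the same libraries.

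Dio3os (chromosome 12, 110275385 to 110278172) starts 896 bases from Dio3, an imprinted gene for the enzyme that inactivates thyroid hormone. It rose 5.58-fold, from 0.190, 0.332 and 0.438 FPKM to 2.11, 0.601 and 2.70 (SE 0.77 on the log2 scale, adjusted p 0.0245). Dio3 rose 5.35-fold. No member came from a list of 4 X inactivation lncRNAs.

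Dubr (chromosome 16, 50719294 to 50732773), a lncRNA known from muscle cell differentiation, was at 0.532, 0.411 and 0.630 FPKM in NC and 4.69, 0.801 and 4.46 in MF. It rose 6.32-fold (SE 0.68 on the log2 scale, adjusted p 0.0185), with MF replicate 2 far below the other MF libraries. The naming rule ranked the 12 largest rises among tested members without overlap and with at least 2 FPKM in the higher group. Larger rises at lower levels, such as those of Dnm3os and Dlx4os, fell outside it. The remaining members of these 12 were predicted or uncharacterised genes. Gm50475, whose coordinates in the files overlap Tmem200b, rose 4.80-fold and 2700033N17Rik, 379 bases from the homeobox gene Meis2, rose 3.99-fold. Gm31036, Gm30025, Gm47547, Gm16136 and 2610306M01Rik rose between 2.43-fold (2610306M01Rik) and 4.24-fold (Gm31036). Of these, Gm47547 is 96.0% identical to Gm8113 over 2707 bases, so its reads are uncertain.

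In 5 members a whole group had 0 counts. Gm15524, which overlaps Pax9, a factor gene of pharyngeal and skeletal development, had 0 counts in all NC libraries and 0.563, 1.54 and 1.33 FPKM in MF. Set against 3 counts over the group, this was 8.04-fold higher. Gm20554 starts 256 bases from the homeobox gene Irx2 and was 13.1-fold higher by the same measure, and Gm35853, which holds miR-1941, 6.55-fold higher. In the other direction, 1700113B09Rik and Gm47518 had 0 counts in all MF libraries and were 11.6-fold and 7.46-fold lower by this measure. These genes were named after their values were seen. Such values allow only for counting error in the group at 0 counts. The counts of the other group are taken as exact, so the values are not strict lower limits.

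Most members that fell carry only a clone or prediction name. Of the 80 members with such names 46 were lower, while of the 14 with other symbols 11 were higher and 3 lower (Eprn, Snhg16 and Ptprtos). Eprn, called Ephemeron, is a lncRNA known from the exit of embryonic stem cells from naive pluripotency (chromosome 13, 73344665 to 73347384). It was at 8.999, 14.2 and 6.67 FPKM in NC and 0.799, 5.10 and 1.88 in MF, and fell 3.83-fold (SE 0.69 on the log2 scale, adjusted p 0.0299). All MF libraries were below all NC libraries, with MF replicate 2 nearest to NC. The fall was 7.43-fold without MF replicate 2 and 2.84-fold without MF replicate 1 (adjusted p 0.0781). From a list of 18 lncRNAs of pluripotent cells, Eprn fell, while the other member, Evx1os, given above, was higher in MF but untested.

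Snhg16 (chromosome 11, 116671604 to 116685072), a host of small nucleolar RNAs and the member from a list of 19 such hosts, was at 3.07, 6.89 and 4.26 FPKM in NC and 1.45, 2.79 and 1.63 in MF. It fell 2.42-fold (SE 0.50 on the log2 scale, adjusted p 0.0347), and 497 bases of its exons overlap a coding gene. Of the 7 members with antisense names, 6 were higher. Ptprtos, opposite the receptor phosphatase gene Ptprt, fell 10.4-fold (adjusted p 0.0240), from 1.22, 2.56 and 1.28 FPKM to 0.166, 0.283 and 0. Its log2 fold change was −3.38, and −2.85 without MF replicate 3. Without MF replicate 2, with counts of 2 and 0 left in MF, it was −4.09.

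The abundant falling members were Gm26917, Gm32885 and 1700018B24Rik. Gm32885 (chromosome 15, 97157029 to 97167244) was at 22.1, 31.8 and 19.8 FPKM in NC and 2.52, 10.5 and 3.52 in MF. It fell 4.47-fold (SE 0.58 on the log2 scale, adjusted p 0.0204), 8.14-fold without MF replicate 2 and 3.51-fold without MF replicate 1. In 1700018B24Rik (chromosome 3, 48605732 to 48609102) the level went from 4.63, 24.6 and 8.13 FPKM to 0, 1.10 and 0.518. It fell 22.9-fold (adjusted p 0.0164), with NC replicate 2 far above the other NC libraries. Without NC replicate 2 the fall was 11.7-fold, without MF replicate 1 15.1-fold and without MF replicate 2 48.2-fold. The nearest coding start lies 1148223 bases away.

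Gm26917 (chromosome 17, 39843013 to 39846341) was the second most abundant member, at 74.9, 103 and 194 FPKM in NC and 48.4, 45.3 and 24.8 in MF. It fell 3.14-fold (SE 0.49 on the log2 scale, adjusted p 0.0236), without overlap of the groups. In GENCODE M21 a ribosomal RNA gene on the opposite strand lies 12 bases past its end. Whether reads of ribosomal RNA entered its level was not tested.

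Large falls with few counts in MF were common. Gm27234 had 82 counts in NC and 3 in MF, a ratio of 30.6 (exact 95% interval 10.1 to 151, which covers counting error only). Gm12031 fell 15.9-fold, Gm41031 9.84-fold, 1110002J07Rik 9.67-fold, Gm49448 9.34-fold and 4930461G14Rik 8.64-fold. Gm26564, 4930526L06Rik, Gm26754, Gm17768 and Gm5091 fell between 6.23-fold (Gm5091) and 7.71-fold (Gm26564). The sizes of these falls depended on single libraries. Of the 17 named genes lower in MF, the fitted fold moved by over 1.5 times in 15 when a library was left out, upwards in 14 without MF replicate 2 and downwards in 7 without MF replicate 1 and in 5 without NC replicate 2. Without NC replicate 2 the fold was 4.46 for 1110002J07Rik, 3.76 for Gm41031, 3.58 for Gm17768 and 3.73 for Gm5091, with adjusted p-values from 0.0501 (1110002J07Rik) to 0.157 (Gm41031). Without MF replicate 1 it was 10.6 for Gm12031, 6.51 for Gm41031, 6.18 for Gm49448, 5.73 for 4930461G14Rik, 5.11 for Gm26564 and 4.89 for 4930526L06Rik. Without MF replicate 2 it lay between 10.9 (Gm17768) and 60.2 (Gm26564) for these genes other than Gm12031, which then had 0 counts in MF. Some of these folds rest on very few reads. MF replicates 1 and 3 held 0 and 1 counts of Gm26564 and 0 and 2 of Gm41031. For Gm27234 the fitted fold was 26.7, and 49.4 without MF replicate 3, when counts of 0 and 1 were left in MF. Of the 49 lower members, 21 had 0 counts in MF replicate 1, 3 in MF replicate 2 and 10 in MF replicate 3. At these depths 3 counts correspond to 0.156 to 0.201 FPKM for a gene of 1 kb. Gm26754 is 98.2% identical to Gm48168, another lower member, over 335 bases, so their reads may be shared.

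Higher and lower members differed in where they lie in the genome. Position was not itself a rule of choice, but exons of 16 of 45 higher and 3 of 49 lower members overlap those of a coding gene. Reads there may come from either gene, so position and measured level may not be independent. In GENCODE M21, the start of 26 of 45 higher members (57.8%) lay within 2 kb of the start of a coding gene. The same held for 6 of 49 lower members (12.2%) and for 17.5% of all 10155 annotated lncRNA genes, whether expressed here or not. The median distance was 1392 bases in the higher members, 42641 in the lower and 37441 in all lncRNA genes. Higher members overlapped a coding gene on the opposite strand in 25 of 45 cases and lower members in 9 of 49. Pairs starting head to head within 2 kb numbered 12 and 4. Higher members were also longer, with a median exonic length of 2574 bases against 1042. The differences are given as counts without a test.

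Deposited coding neighbours of the higher members went the same way. Only preselected coding genes could be counted, so a neighbour outside the authors' selection was never scored. Several higher members start beside such an unscored coding gene. Examples are Gm9776 (37 bases from the start of Ap3b1), 2610306M01Rik (77 bases, Aak1) and B130034C11Rik (126 bases, Cct8). Of 45 higher members, 21 had a deposited coding gene within 10 kb, and in all 21 cases that gene was higher too. They include the transcription factor genes Hand2, Tbx2, Twist2, Pax9, Onecut1, Nr2f2, Meis2, Evx1 and Dlx4. Only 2 of 49 lower members had such a neighbour. Gm26754 shared the direction of its overlapping neighbour 2410141K09Rik, while Gm15915 was lower beside a higher Ntn4. Among deposited coding genes themselves, 206 of 1811 had a deposited coding neighbour within 10 kb, with the same direction in 81.6% of cases (85.2% for higher and 75.6% for lower genes). For 2610027K06Rik, 328 bases from the cardiac factor gene Tbx2, levels were 0, 0 and 0.0260 FPKM in NC and 0.243, 0.0462 and 0.549 in MF, and for Tbx2 0.299, 0.668 and 1.03 in NC and 13.9, 2.74 and 15.6 in MF. Exons of 16 higher and 3 lower members overlap exons of a coding gene, and reads there cannot be assigned to either gene.

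**Figure D4:**
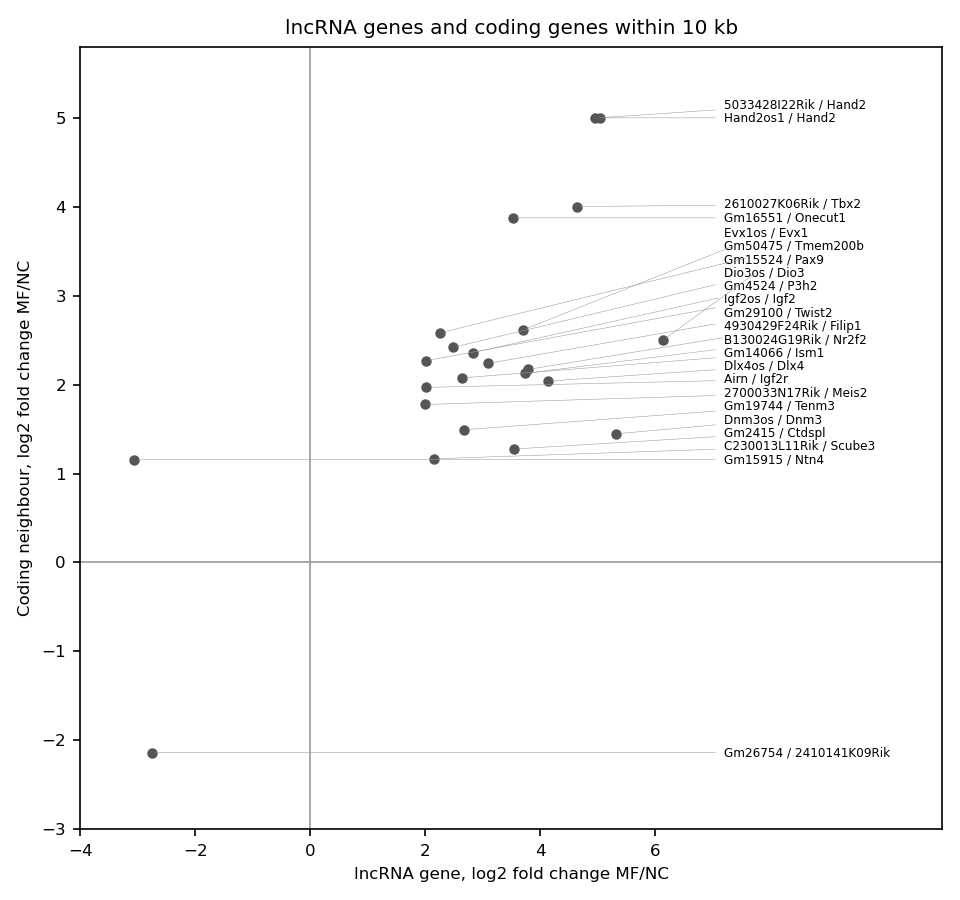
Log2 fold change of each lncRNA gene (horizontal axis) against that of its nearest deposited coding gene (vertical axis) for the 23 members with such a gene within 10 kb, each pair labelled. In 22 of 23 pairs both genes have the same direction, 21 of them in the upper right.

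Promoter sequence was set beside the same split. RefSeq promoters were matched for 56 members, and for 44 of them the start lay within 1 kb of that in the files. A ratio of observed to expected CG of at least 0.6, a usual mark of CpG islands, was found in 12 of 21 higher members (57.1%) and 6 of 23 lower members (26.1%). The share was 35.8% of all RefSeq promoters and 14.0% of those of lncRNA genes. The median ratio was 0.67 in higher and 0.35 in lower members. Some CG-rich windows lie beside a coding start, as in Gm9776 (higher, 37 bases, ratio 0.99) and 4930558J18Rik (lower, 76 bases, ratio 1.0). In Snhg16 (lower, ratio 0.90) the nearest coding start was 9686 bases away. Whether the CG difference goes beyond the difference in distance to coding starts was not tested. The motif TATAAA, searched on both strands, was in 2 of 21 and 1 of 23 of these windows, against 13.6% of all promoters and 15.5% of those of lncRNA genes.

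**Figure D5:**
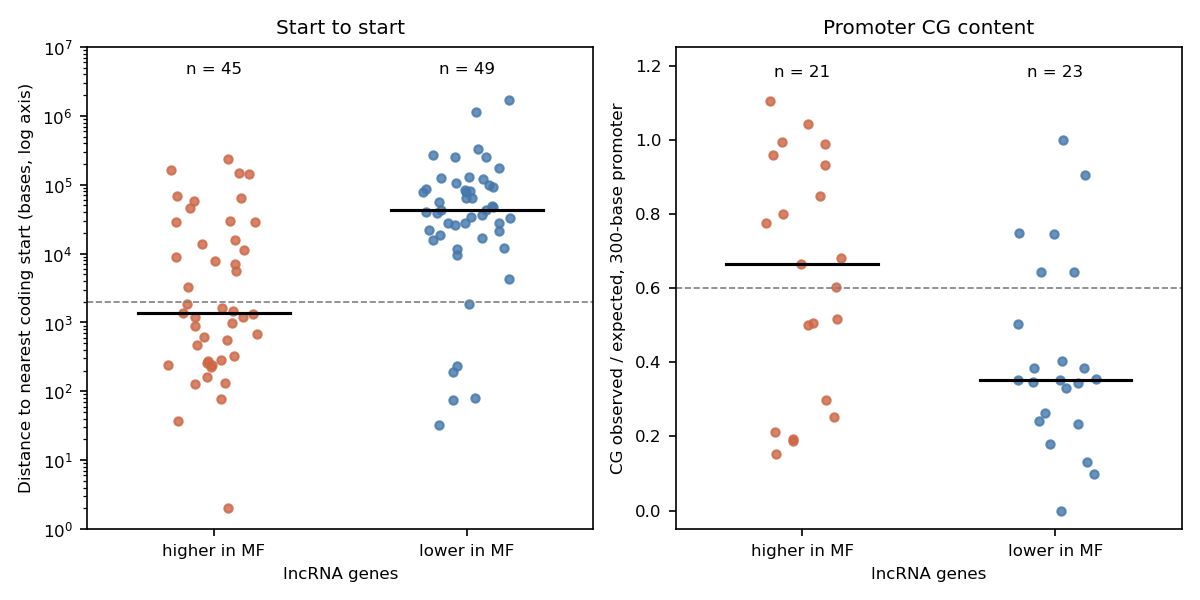
Left, distance in bases (log axis) from the start of each lncRNA gene to the nearest coding start, with a dashed line at 2 kb. Right, observed over expected CG in the 300-base promoter window for the 44 matched genes, with a dashed line at 0.6. Bars are medians (1392 and 42641 bases, 0.67 and 0.35), and the higher genes lie nearer to coding starts with more CG.

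Members lying within 500 kb of each other shared a direction in some cases and not in others. On chromosome 16, Gm49448 and Gm49451 are 21326 bases apart. On chromosome 10, Gm47599, Gm47708 and Gm47725 follow each other at 268959 and 154087 bases, and all 3 were lower. Gm48222 and Gm26754 (chromosome 13) and Gm17768 and EU599041 (chromosome 7) were further lower pairs. Gm48222 is 99.8% identical to Gm10324 over 464 bases, and EU599041 96.8% identical to its coding neighbour Zfp936 over 500 bases. Reads of these 2 members may therefore be shared. Hand2os1 with 5033428I22Rik and Gm45889, H19 and Igf2os lay together as higher members. In 3 pairs the directions were opposite: G730013B05Rik was lower and Dubr higher, Gm50475 higher and Gm17300 lower, and 5033428I22Rik higher and 2500002B13Rik lower. The pairs described as lower were picked out after the values were seen.

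Together the members took 0.490%, 0.272% and 0.619% of the library totals in NC replicates 1 to 3 and 1.26%, 0.635% and 0.897% in MF. Most of this was H19. Without H19 the shares were 0.0472%, 0.0711% and 0.0876% in NC and 0.0455%, 0.0390% and 0.0412% in MF, and without Gm26917 as well they were 0.0222% to 0.0367% in NC and 0.0239% to 0.0329% in MF. The library totals lay between 14929232 and 19176383 counts, of which the deposited genes made up 5.68% to 10.4%.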

How the data were processed

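RNA was measured in 3 NC and 3 MF libraries. The submitters' processing notes list HISAT2 2.0.5, featureCounts and build mm10 but no settings, and whether counting used the strand is not stated. Per the file headers, the authors deposited for each gene its FPKM, its raw count and a normalized signal. Their own comparison is deposited as log2 fold changes, with p-value columns before and after adjustment, and position and length are further deposited columns. The deposited count and FPKM together gave the library totals. Of 2031 rows, 48 have no name (0.0134% to 0.0390% of totals) and were left out of the tests, and 4 names turned into dates were restored by ID.

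Counts were tested with edgeR 4.0.16 (R 4.3.3, quasi-likelihood, group as the only term, recovered totals as library sizes, two-sided) on the 1651 named genes averaging 0.5 FPKM or more, adjusted by Benjamini-Hochberg at 0.05. The common biological coefficient of variation was 0.51. Because the authors had selected the genes on these libraries, the adjusted values carry no error rate for the whole genome. Folds come from edgeR, except against 0 counts (a bound set by 3 counts in that group) or 1 to 3 counts (a count ratio and its exact 95% interval). Folds with a library left out come from edgeR throughout, also at such low counts. These bounds and intervals use counts pooled over a group and leave out the spread between libraries. The bounds also take the counts of the other group as exact, so they are not strict lower limits. The test was also run on simulated counts with less spread than these data, most genes unchanged, equal numbers raised and lowered, and no preselection. That run does not show how the test performs on genes selected as here.

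Members and gene lists were chosen with earlier results of these data known. Named genes were list members, other members with a symbol that is not a clone name, the 12 largest rises and 12 largest falls without overlap and with at least 2 FPKM in the higher group, the 5 most abundant, and their coding neighbours within 10 kb. Positions came from the files and from GENCODE M21 (93 of 94 IDs matched), and copies are matches of at least 95% identity over at least 200 bases (9 members). The replicate numbers in the labels were taken as pairs for the replicate block, since deviations from the group means correlated at 0.40, 0.54 and 0.35 for numbers 1, 2 and 3; NC replicate 3 with MF replicate 1 also gave 0.54, and no label ties the numbers to a shared batch. Alternatives were DESeq2 1.42.0, TMM, limma 3.58.1, other filters and pseudocounts, a replicate block, adjustment over recovered tests and each library left out.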

Additional observations from a re-analysis of the deposited data

How the results depend on the processing

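The main counts were 23 members called higher and 40 lower (62.1% and 35.4% of all tested genes). Adjustment over the recovered number of tests called 0 and 0 (63 with an unadjusted p under 0.05). DESeq2 with its own size factors called 6 higher and TMM 7 higher, both with 42 lower (all genes 15.9% and 36.3%, and 17.6% and 35.7%), a shift that comes with size factors estimated on genes that are mostly higher in MF; with the authors' size factors, chosen after seeing the data, DESeq2 called 25 and 42 (63.7% and 36.3%). No filter on low values gave 42 higher and 47 lower of 94 genes (62.8% and 34.9%), and a mean of at least 2 FPKM gave 5 and 17 of 28 genes (59.1% and 35.7%), as the number of genes tested changes. Leaving out each library in turn gave 0 to 21 higher and 0 to 41 lower, with 0.727% to 60.3% and 0.0% to 35.3% of all genes. limma called 25 higher with 41 or 42 lower at pseudocounts of 1 and 0.1 (61.9% and 34.1%, and 61.8% and 34.5%). The replicate block gave 25 higher and 41 lower (62.4% and 35.7%); among the named genes it changed no call other than that of H19.

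Of the 33 tested named genes, none changed direction under the alternatives run. DESeq2 and TMM each ended the call of 11, all higher in MF, and leaving out MF replicate 3 ended 32, NC replicate 2 20, MF replicate 1 19, NC replicate 1 14, NC replicate 3 10 and MF replicate 2 1. Members sharing the direction of a deposited coding neighbour numbered 21 of 22 within 2 kb and 30 of 37 within 100 kb. The latter were made up of 26 of 26 higher but 4 of 11 lower members (36.4%, against 59.4% of lower deposited coding genes). Starts near a coding start numbered 19 higher and 5 lower members within 1 kb and 31 and 8 within 10 kb. The depth leaves 27 members below the filter on low values, and falls that end at 0 counts have no upper limit.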

Other observations

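Mirt1, a lncRNA known from the infarcted heart, had a mean below the test's filter and measured 0.157 ± 0.0235 FPKM in NC and 0.360 ± 0.0793 in MF (SD, n = 3). The lncRNA Gm45889, 285111 bases from H19 on chromosome 7, was also below the filter, at 0.0937, 0 and 0.138 FPKM in NC and 1.33, 0.279 and 1.15 in MF.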
